A study of Mus musculus with 3 samples.

Results

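The transcripts described here encode the core of the Hippo pathway and were taken by symbol from a table of RIP-seq counts, 10 genes of 49997. They were the coactivators Yap1 and Wwtr1 (the gene of TAZ), the DNA-binding factors Tead1, Tead2, Tead3 and Tead4, the LATS kinases Lats1 and Lats2, and the MST kinases Stk3 (MST2) and Stk4 (MST1). In RIP-seq, RNA recovered with an antibody against a protein is sequenced and set against RNA of an input library. Here the protein was YTHDF2, a cytoplasmic reader of N6-methyladenosine (m6A) that promotes decay of the mRNAs it binds. The cells were mouse ESCs of the E14 line, cultured on gelatin in Knock-out DMEM with serum replacement and LIF, and all of them had received Dox for 24 h. In the cell system of the study, which the RIP labels do not spell out, Dox induces a Dux transgene and with it a state that resembles the 2-cell embryo (2C-like). There was 1 input library and 2 YTHDF2 IP libraries, all from Dox-treated cells, so the comparison is of IP with input in induced cells and not of induced with uninduced cells. The labels do not say whether the IP libraries came from separate cultures, so p-values measure only the spread between these libraries, which may be technical.

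Hippo signaling is a kinase cascade that restrains growth. The MST kinases activate the LATS kinases, which phosphorylate YAP and TAZ and keep them in the cytoplasm, where they can be degraded. Unphosphorylated YAP and TAZ enter the nucleus and drive transcription through TEAD factors, which bind DNA but need a coactivator. In the early mouse embryo this switch separates trophectoderm, in which TEAD4 with nuclear YAP turns on Cdx2, from the inner cell mass, the source of ESCs.

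The word most often methylated in mammalian mRNA is a form of DRACH such as GGACT, and m6A is concentrated around stop codons. The sense strand of the RefSeq Select transcript of each gene was searched for GGACT, which contains GGAC and lies within DRACH. Below is the GGACT nearest to the stop codon for which the 25 bases of mRNA that hold it lie in a single exon. It is given for both coactivators, for Tead2, which was higher in the IP, and for Tead1 and Tead4, which were lower. The kinases Lats2 and Stk3 follow. Capitals mark GGACT. The sequences are those of the RefSeq annotation of GRCm38.p6, written 5′ to 3′ on the strand of the gene, and the positions are chr9:7938478-7938502 (minus) for Yap1, chr3:57459000-57459024 (minus) for Wwtr1, chr7:112898644-112898668 (plus) for Tead1, chr7:45232912-45232936 (plus) for Tead2, chr6:128228044-128228068 (minus) for Tead4, chr14:57691319-57691343 (minus) for Lats2 and chr15:34945109-34945133 (minus) for Stk3. The site of Tead4 lies in the 3′ UTR and the others in coding exons.
Yap1: caggatggagGGACTccgaatgcag
Wwtr1: gttgacctcgGGACTttggagtctg
Tead1: ggcttgtgaaGGACTgaacctggtt
Tead2: gcctggtcagGGACTgatggagccc
Tead4: gaaccccggtGGACTcagccaggca
Lats2: caggggatgcGGACTtggaaggtgc
Stk3: ttgataagcaGGACTtcaagaacaa

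In Tead1 and Tead2 the motif ran into the stop codon itself, with its T as the first base of TGA, and its centre lay 4 bases before the last base of the stop in both. With its window in a single exon, the nearest motif was 86 bases before the stop in Wwtr1 and 43 in Lats2. It was 274 bases before the stop in Stk3 and 431 in Yap1, and in Tead4 it was 310 bases after the stop. GGACT stood within 200 bases of the stop codon in 6 of the 10 transcripts (60.0%), against 39.8% of 15011 tested genes with such a transcript. The median 3′ UTR was 2062 bases in the 10 and 938 bases in the tested genes, and a 3′ UTR under 200 bases leaves less sequence to search. The 6 were Wwtr1, Tead1, Tead2, Tead3, Lats2 and Stk4, of which 2 were higher in the IP, 2 were lower and 2 did not pass the test. The other 4 ranged from higher (Yap1) to lower (Stk3). Anywhere in the transcript, GGACT was present in all 10, against 91.3% of the tested genes. A match is a word in the sequence and does not show that the base was methylated or bound.

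The libraries held 36986994 counts (input), 35259827 (IP replicate 1) and 35888743 (IP replicate 2), and 19601 genes had enough counts to be tested, all 10 Hippo genes among them. Ythdf2 mRNA itself rose 2.98-fold in the IP. All 8 ESC markers were present in every library. Their summed level was 11852 TPM before IP and 11295 and 11358 TPM after it. TPM is a level scaled by exonic length and then by the library's sum of such length-scaled counts. Single markers did not move alike: Dppa5a went from 5799 TPM to 3585 and 3680 TPM, and Sox2 from 571 TPM to 1165 and 1084 TPM. The 5 markers of the 2C-like state summed to 1656 TPM before IP and to 2821 and 2806 TPM after it. Among them, Zscan4c was at 472, 1169 and 1144 TPM, and Usp17la at 215, 230 and 239 TPM. The 5 trophoblast markers summed to 24.7, 43.2 and 45.7 TPM. Eomes was at 13.8, 30.8 and 29.7 TPM, and Cdx2 and Elf5 had 3 counts or fewer in the input. The 4 primitive endoderm markers summed to 5.19, 9.33 and 6.74 TPM. The 4 fibroblast markers summed to 32.7, 18.0 and 19.3 TPM, with Col3a1 at 0 in all libraries. Nearly all of the fibroblast sum was Thy1, at 31.9, 17.4 and 18.6 TPM. The part of other cell types or of the 2C-like state in the Hippo values was not tested.

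Across the 10 genes, 3 were higher in the IP than in the input (Yap1, Lats2 and Tead2), 4 were lower (Wwtr1, Stk3, Tead4 and Tead1) and 3 did not pass the test (Tead3, Lats1 and Stk4). These calls are at an adjusted p under 0.05 by the quasi-likelihood test of edgeR at any fold. By the same rule 28.5% of all tested genes were higher and 30.1% lower, so the split of the Hippo genes was near that of the transcriptome. When a fold over 2 was also required, 0 of the 10 were enriched, against 15.2% of tested genes, and 2 were depleted (Wwtr1 and Stk3), against 14.0%. The count was also 0 at an unadjusted p under 0.05, since no member reached 2-fold upward, and 0 by DESeq2, but it was 1 with total count scaling or with no filter on low counts and 2 with TPM scaling. The depleted count was 1 with total count scaling or with the trend in GC content or in exons per kilobase removed, and 0 with TPM scaling. Their median log2 fold change was -0.0032, and that of all tested genes was 0.0065. Every call rests on the small spread between the IP libraries: with a dispersion of 0.1 set for every gene, 0 of the 10 passed in either direction.

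**Figure D1:**
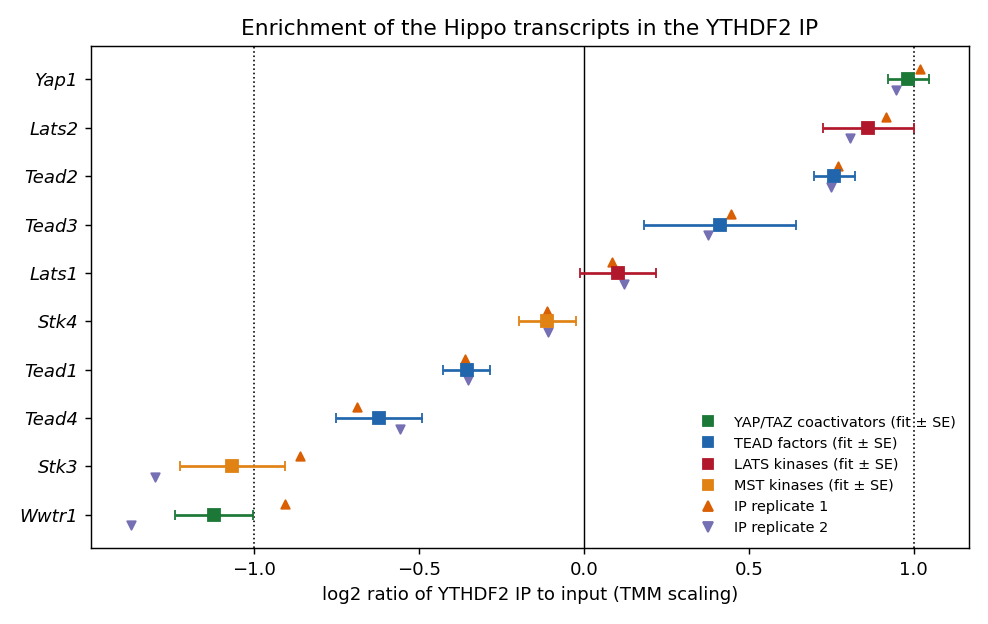
Log2 ratio of YTHDF2 IP to input for each transcript, with squares for the fit ± SE (2 IP libraries against 1 input), coloured by role, triangles for each IP library alone, and dotted lines at 2-fold. Yap1, Lats2 and Tead2 sit near or below the upper 2-fold line, and Wwtr1 and Stk3 straddle the lower one, with replicate 2 below it and replicate 1 above it. The signs of Tead3, Lats1 and Stk4, which did not pass the test, changed under other settings.

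The coactivators parted most. Yap1 (chromosome 9, 7931999 to 8004638 on mm10, the build of all positions here, minus strand) had 5865 input counts against 12118 and 11707 in replicates 1 and 2 of the IP. Both IP libraries were high, at log2 ratios of 1.02 and 0.95 to the input after TMM scaling, which sets the bulk of genes equal between libraries. The fitted log2 fold change was 0.98 ± 0.062 (SE), a 1.98-fold rise with an adjusted p of 2.64e-24 by edgeR, just inside the 2-fold line. Which side of that line it fell on depended on the scaling, since scaling by total count gave a log2 fold change of 1.08 and called Yap1 enriched.

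Wwtr1 (chromosome 3, 57455644 to 57575910, minus strand) went the other way. It had 1973 input counts against 1076 and 789 in replicates 1 and 2 of the IP. Both IP libraries were below the input, but they were not alike, at log2 ratios of -0.90 and -1.37. The fitted log2 fold change was -1.12 ± 0.118, a 2.17-fold fall with an adjusted p of 2.33e-10 by edgeR. IP replicate 1 alone did not reach 2-fold, and neither did the fit after the trend of log2 fold change with exonic GC content over all tested genes was removed, which gave -0.81, or the fit with TPM scaling, which gave -0.97.

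YAP and TAZ are paralogs that bind the same TEAD surface, and their mRNAs differed in the IP by 2.10 ± 0.134 on the log2 scale (difference of the fitted values with the combined SE). Replicates 1 and 2 of the IP put the difference at 1.92 and 2.32, and removal of the GC trend at 1.61. In levels per transcript length, Yap1 was 3.22 times Wwtr1 before IP and 12.2 and 16.0 times after it. Yap1 thus made up 76.3% of the summed TPM of both coactivators before IP and 92.4% and 94.1% after it. These are levels in bulk RNA, in which fewer cells with a transcript and less of it per cell cannot be told apart.

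The TEAD factors, which share a DNA-binding domain, did not move as a family. Tead2 was the most abundant of the 10 transcripts, at 134 TPM in input RNA and 254 and 249 TPM after IP. Its counts (chromosome 7, 45215792 to 45233468, plus strand) were 5682, 9881 and 9894 in the same order. The IP libraries nearly coincided, above the input, and the log2 fold change was 0.76 ± 0.0629, a 1.69-fold rise with an adjusted p of 2.94e-18 by edgeR. This rise was lost when the trend with GC content was removed, with a log2 fold change of 0.038 and an adjusted p of 0.625. The exons of Tead2 were 60.0% GC, higher than in 95.8% of tested genes.

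Tead1 and Tead4 were lower in the IP. Tead1 (chromosome 7, 112679356 to 112906784, plus strand) had 4484 input counts against 3568 and 3640 after IP, a log2 fold change of -0.36 ± 0.0718 with an adjusted p of 1.31e-05 (-0.70 with the trend in exons per kilobase removed). Tead4, the TEAD factor of the trophectoderm (chromosome 6, 128227143 to 128300813, minus strand), had 965 input counts against 612 and 679 after IP, a log2 fold change of -0.62 ± 0.131 with an adjusted p of 2.71e-05. Both IP libraries lay below the input for each gene. Tead4 had GC-rich exons, at 58.1%, so that removing the GC trend moved it further down, to -1.19, past the 2-fold line.

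Tead3 was the scarcest of the 10 (chromosome 17, 28331671 to 28350805, minus strand), with 205 input counts against 285 and 276 after IP. Both IP libraries were above the input, but the log2 fold change of 0.41 ± 0.23 did not pass the test (adjusted p = 0.119 by edgeR), and its sign turned to -0.36 with the GC trend removed. It passed with the trend in exons per kilobase removed, at 0.58 (adjusted p = 0.0246), and with TPM scaling, at 0.56 (adjusted p = 0.0319). The gene model of Tead3 in the table, like that of Lats1, also lists exons on contigs outside the main chromosomes. Reads that align to both places would have been left out of the count, and how many there were was not tested.

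Among the TEAD transcripts, Tead2 made up 74.3% of the summed TPM before IP and 86.5% and 86.0% after it. The share of Tead1 was 14.0% before IP and 7.44% and 7.54% after it. Tead4 went from 9.67% to 4.11% and 4.53%, and Tead3 stayed near 2% throughout, at 2.10%, 1.96% and 1.88%. On the log2 scale Tead2 exceeded Tead1 by 1.11 ± 0.0954 and Tead4 by 1.38 ± 0.145, with like values in both IP libraries. The gap to Tead1 was 0.27 with the GC trend removed, whereas that to Tead4 was 1.23.

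**Figure D2:**
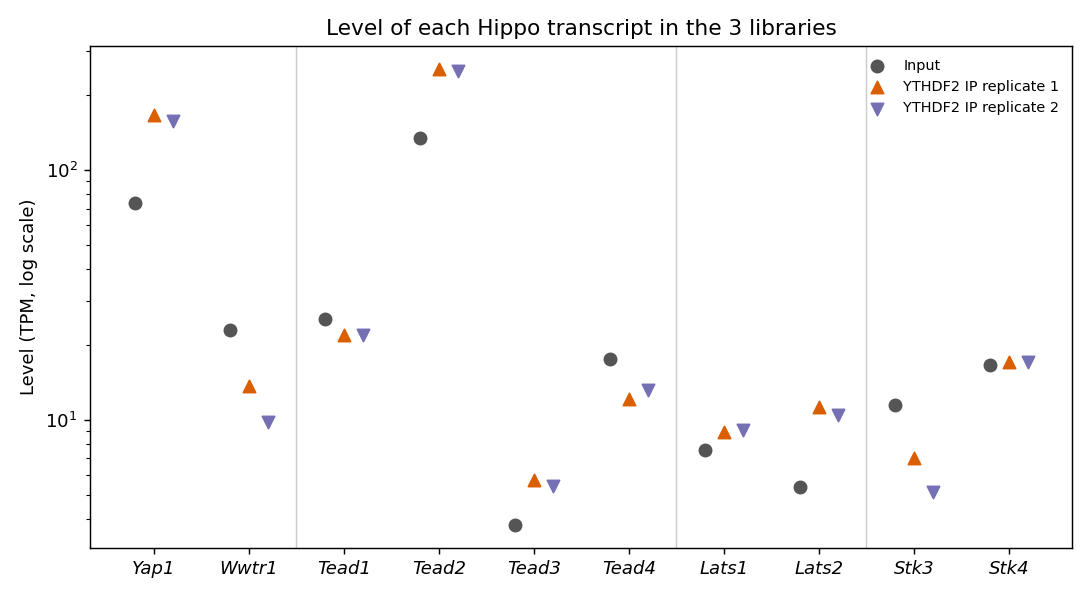
Level of each transcript in TPM (log scale) in the input (circles) and in YTHDF2 IP replicates 1 and 2 (triangles), with lines between the coactivators, TEAD factors, LATS kinases and MST kinases. Tead2 and Yap1 are the highest in every library, and Wwtr1 falls from 23.0 TPM to 13.6 and 9.79 TPM after IP. TPM scaling places all genes higher in the IP by 0.15 (log2, median) than the scaling of the fit, so Stk4 is slightly higher in the IP here and slightly lower in the fit.

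The LATS kinases phosphorylate YAP and TAZ directly, and Lats2 is itself a target of YAP. Lats2 (chromosome 14, 57689662 to 57746212, minus strand) had 546 input counts against 1051 and 990 in replicates 1 and 2 of the IP. Both IP libraries were above the input, at log2 ratios of 0.91 and 0.81. The log2 fold change was 0.86 ± 0.137, a 1.82-fold rise with an adjusted p of 6.68e-08 by edgeR. Lats2 shares 323 exonic bases (5.72%) with Gm52140 on the opposite strand, and strand was not used in counting.

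Lats1 (chromosome 10, 7681200 to 7716461, plus strand) had 1044 input counts against 1131 and 1176 after IP. Its log2 fold change of 0.10 ± 0.114 did not pass the test (adjusted p = 0.449 by edgeR). It shares 138 exonic bases (1.80%) with Pcmt1 on the opposite strand. Removal of the GC trend put it at 0.51 (adjusted p = 7.37e-05), and removal of the trend in exons per kilobase at -0.24 (adjusted p = 0.0625). Lats2 exceeded Lats1 by 0.76 ± 0.178 on the log2 scale, with 0.83 and 0.69 in the IP libraries. That gap closed to 0.052 with the GC trend removed. Lats2 made up 41.6% of the summed TPM of both before IP and 55.8% and 53.4% after it, so their order switched.

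The MST kinases, which stand at the top of the cascade, also parted. Stk3 (chromosome 15, 34875499 to 35155882, minus strand) had 759 input counts against 427 and 319 in replicates 1 and 2 of the IP. Both IP libraries were below the input, with replicate 2 the lower, at log2 ratios of -0.86 and -1.30. The log2 fold change was -1.06 ± 0.158, a 2.09-fold fall with an adjusted p of 1.28e-08 by edgeR. As with Wwtr1, IP replicate 1 alone was within 2-fold. The fit was also within 2-fold with the GC trend removed (-0.68), with the trend in exons per kilobase removed (-0.99), with total count scaling (-0.97) and with TPM scaling (-0.92).

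Stk4 (chromosome 2, 164074113 to 164155524, plus strand) had 2286 input counts against 2158 and 2196 after IP. Its log2 fold change of -0.11 ± 0.0866 did not pass the test (adjusted p = 0.277 by edgeR), and its sign turned under TPM scaling, to 0.038. It passed with the trend in exons per kilobase removed, at -0.42 (adjusted p = 2.59e-05). Stk4 exceeded Stk3 by 0.95 ± 0.18 on the log2 scale, by 0.75 in the first IP library and 1.19 in the other. The gap was 0.66 with the GC trend removed and 0.58 with the trend in exons per kilobase removed. Stk4 made up 59.2% of the summed TPM of both MST kinases before IP and 70.9% and 76.9% after it.

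Ordered by log2 fold change, the genes ran Yap1, Lats2, Tead2, Tead3, Lats1, Stk4, Tead1, Tead4, Stk3 and Wwtr1. The first 3 were close, with gaps of 0.12 ± 0.15 between Yap1 and Lats2 and 0.10 ± 0.151 between Lats2 and Tead2. Stk3 and Wwtr1 at the other end differed by 0.06 ± 0.198, and theirs were the only neighbours whose IP libraries overlapped. The widest step between neighbours was that from Tead4 to Stk3, at 0.44 ± 0.205. Among all tested genes, Yap1 stood at percentile 79.2 and Wwtr1 at percentile 15.1, so neither was at the edge of the transcriptome, whose middle 50% of genes ran from -0.72 to 0.81.

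By level in the input, the order was Tead2 (134 TPM), Yap1 (73.8), Tead1 (25.2), Wwtr1 (23.0), Tead4 (17.5), Stk4 (16.6), Stk3 (11.4), Lats1 (7.57), Lats2 (5.38) and Tead3 (3.80). With 1 input library these levels have no replicate spread. In the IP, Wwtr1 dropped from rank 4 to rank 6 and Stk3 from rank 7 to rank 9, while Stk4 and Lats2 each moved up 2 ranks, to 4 and 7.

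Exonic GC content and exon density varied widely within this small set. Tead3 (60.6%), Tead2 (60.0%) and Tead4 (58.1%) were above 90% of tested genes in GC content, whereas Wwtr1 (44.2%), Stk3 (43.3%) and Lats1 (43.0%) were in the lowest 20%. Yap1 (50.2%) was close to the median of tested genes, 49.7%. Across all 19552 tested genes with a value, log2 fold change rose with GC content (Spearman rho 0.31), and among the 10 Hippo genes rho was 0.49. Genes are not independent replicates, and all values come from the same 3 libraries, so these are descriptions. Tead4 was GC-rich and lower in the IP, and Lats1, the most GC-poor of the 10, was at 0.10, not past the test.

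The density of GGAC ran along with GC content, with 7.65 per kilobase in Tead3 and 6.36 in Tead2 against 2.34 in Lats1, and rho with log2 fold change was 0.41 among the Hippo genes and 0.24 among all. For GGACT the values were 0.079 and 0.14. Yap1 held 0.678 GGACT per kilobase and Wwtr1 held 0.627, both under the median of 1.01. Within 200 bases of the stop codon, Wwtr1 held 2 and Yap1 held 0. Exons per kilobase went from 1.17 in Lats1 to 5.09 in Tead2, and rho was 0.19 among the Hippo genes and -0.18 among all genes, opposite in sign. Tead1 had the longest exonic length of the 10 (9905 bases), of which 83.2% lay in a single exon.

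**Figure D3:**
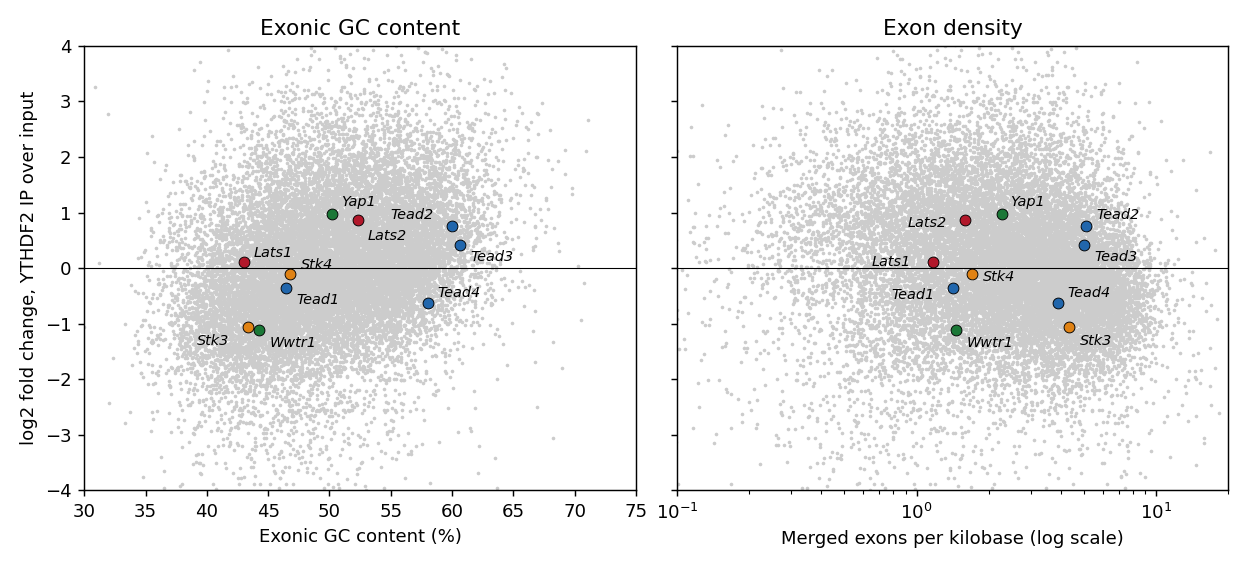
Log2 fold change of YTHDF2 IP over input against exonic GC content (left) and merged exons per kilobase (right, log scale) for 19552 tested genes (grey) and the 10 Hippo genes (coloured by role as in the plot of log2 ratios). Axis limits leave 433 grey points off the left panel and 537 off the right. Tead2, Tead3 and Tead4 lie at the GC-rich end, with Tead4 below 0, and Lats1, Stk3 and Wwtr1 lie at the GC-poor end, with Stk3 and Wwtr1 below 0 and Lats1 at 0.10 (-0.24 with the trend in exons per kilobase removed).

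Of the 10 genes, Yap1, Lats2, Wwtr1, Stk3, Tead1 and Tead4 kept their direction under all 13 other settings and, among those with a test, lost their call at any fold only with the fixed dispersion. The log2 fold change of Yap1 ranged from 0.75 to 1.13 over these settings, and that of Wwtr1 from -1.46 to -0.81. Lats2 ranged from 0.54 to 1.01, Stk3 from -1.30 to -0.68, Tead4 from -1.19 to -0.47 and Tead1 from -0.70 to -0.21. Tead2 stayed above 0, at 0.038 to 0.94. The signs of Tead3, Lats1 and Stk4 each turned under 1 setting.

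**Figure D4:**
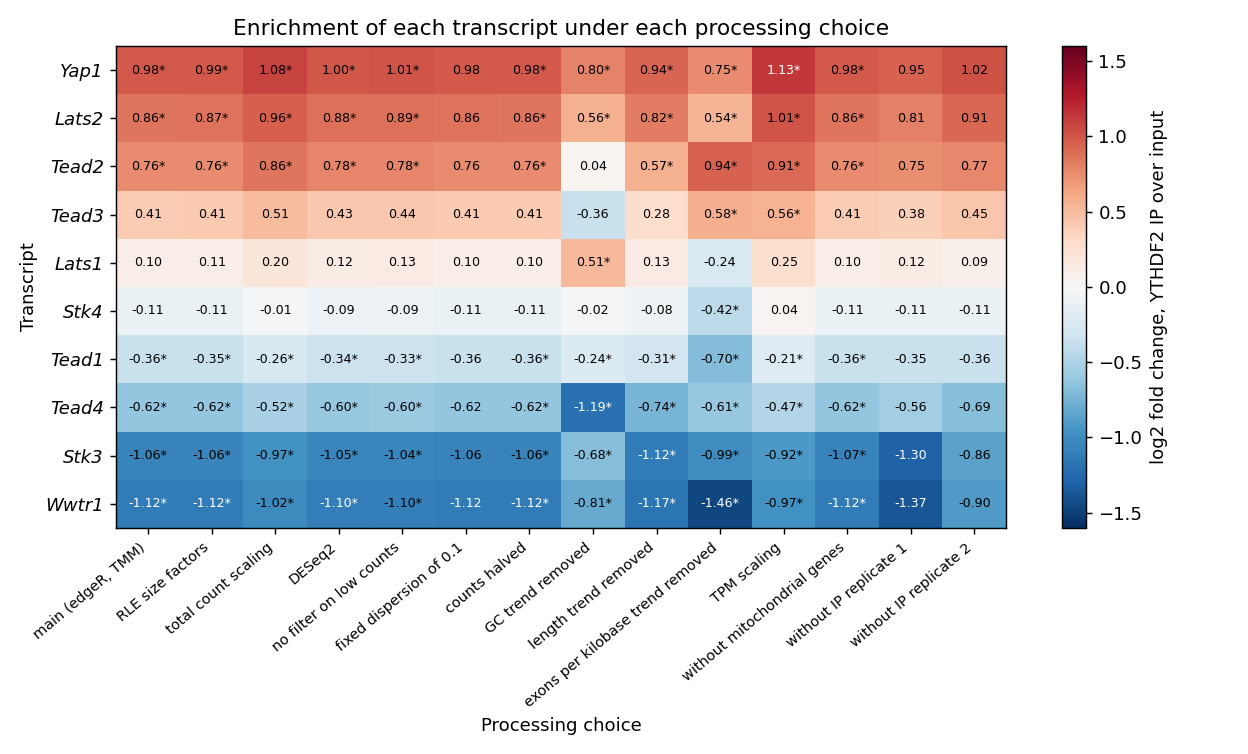
Log2 fold change of each transcript (rows) under each processing choice (columns), red for higher and blue for lower in the YTHDF2 IP, with an asterisk for an adjusted p under 0.05. The last 2 columns leave out an IP library and have no test. The 3 upper and 4 lower rows keep their sign throughout, and the sign changes are those of Tead3 with the GC trend removed (-0.36), Lats1 with the trend in exons per kilobase removed (-0.24) and Stk4 under TPM scaling (0.038).

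Other genes of the pathway were followed as 7 lists with 77 genes, of which 73 were tested. Among these, 27 were higher at any fold, 28 were lower and 18 did not pass, where 28.5% of all tested genes were higher and 30.1% lower. With a fold over 2, 10 were enriched and 7 were depleted, where 15.2% and 14.0% of all tested genes were. The counts of each list below are to be read against these shares and against the median of all tested genes, 0.0065. Their median log2 fold change was -0.016.

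Of 8 adaptors and activators, 2 were higher and 5 lower (28.5% and 30.1% of all tested genes), with a median of -0.46. Sav1, the scaffold that binds the MST kinases, had 1811 input counts against 4882 and 4844 after IP, and rose by 1.39 ± 0.0813 on the log2 scale (adjusted p = 4.06e-26 by edgeR). Mob1a, the coactivator of the LATS kinases, had 3473 input counts against 758 and 895 after IP, and its log2 fold change was -2.11 ± 0.0945 (adjusted p = 8.42e-33). Rassf1, a partner of the MST kinases, was also depleted, at -2.07 ± 0.421 from 123, 28 and 32 counts. Sav1 and Rassf1 were thus past 2-fold in opposite directions, and they were named here because they passed that line.

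Of 12 upstream and related kinases, 9 were lower and 1 was higher (30.1% and 28.5% of all tested genes), with a median of -0.64. Those of the TAO and MAP4K families act beside MST on LATS. Map4k5 was the only kinase of this list past 2-fold (-1.12 ± 0.117), with 1446 input counts against 712 and 651 after IP. All 3 TAO kinases were lower, and so were Map4k1, Map4k3, Map4k4, Mink1 and Tnik, while Map4k2 and Stk38 did not pass.

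Of 16 polarity and junction genes, 15 were tested and Fat4 had 0 counts in all libraries. There were 8 higher and 4 lower (28.5% and 30.1% of all tested genes), with a median of 0.29. Wtip, a LIM protein of the Ajuba family, which inhibits LATS, rose by 1.71 ± 0.0694 from 3022 counts to 9832 and 10463. Crb3, an apical polarity protein, passed at 1.26 ± 0.525 on few and uneven counts (30, 48 and 100). The protocadherin Dchs1 had 2 input counts against 42 and 22 after IP, a ratio of 15.6. Counts were halved for its exact 95% interval, 2.60 to 634, because each mate of a pair was counted on its own, and the interval covers counting error only. Dchs1 passed the filter on low counts only through the IP libraries, where it was high. Without it 7 of 14 tested polarity genes were higher and 2 were enriched, with a median of 0.21. Of 72 pathway genes, 26 were then higher and 9 enriched, with a median of -0.034. The scaffolds Mpp5 (-1.18 ± 0.126) and Dlg1 (-1.17 ± 0.0768) were depleted.

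STRIPAK is a phosphatase complex that opposes the MST kinases. Of its 10 genes, 3 were higher and 4 lower (28.5% and 30.1% of all tested genes), with a median of 0.036, and Ppp2r1a, the scaffold subunit of the phosphatase, was depleted (-1.25 ± 0.058; 13713 input counts against 5880 and 6010 after IP). Of 4 genes of YAP turnover, 2 were higher, and Csnk1d, a casein kinase, was enriched at 1.05 ± 0.0645. Of 5 TEAD cofactors, 1 was higher, Vgll3 (1.64 ± 0.497; 28, 88 and 92 counts), and 1 was lower, Wbp2.

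Of 22 targets of YAP and TEAD, 19 were tested, with 10 higher and 5 lower (28.5% and 30.1% of all tested genes) and a median of 0.30. With a fold over 2, 4 were enriched, where 15.2% of all tested genes were. Fjx1, a secreted regulator of planar polarity, rose by 1.69 ± 0.112 from 671 counts to 2185 and 2254. Gadd45a, a stress-response gene (1.15 ± 0.102), Nuak2, a kinase (1.13 ± 0.204), and Igfbp3, which binds insulin-like growth factors (1.03 ± 0.0779), were enriched too. Nt5e, an ectonucleotidase, was depleted 2.83-fold (SE 0.255 on the log2 scale), with 298 input counts against 107 and 109 after IP. Ankrd1, Ccdc80 and Cdx2 had too few counts to be tested.

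**Figure D5:**
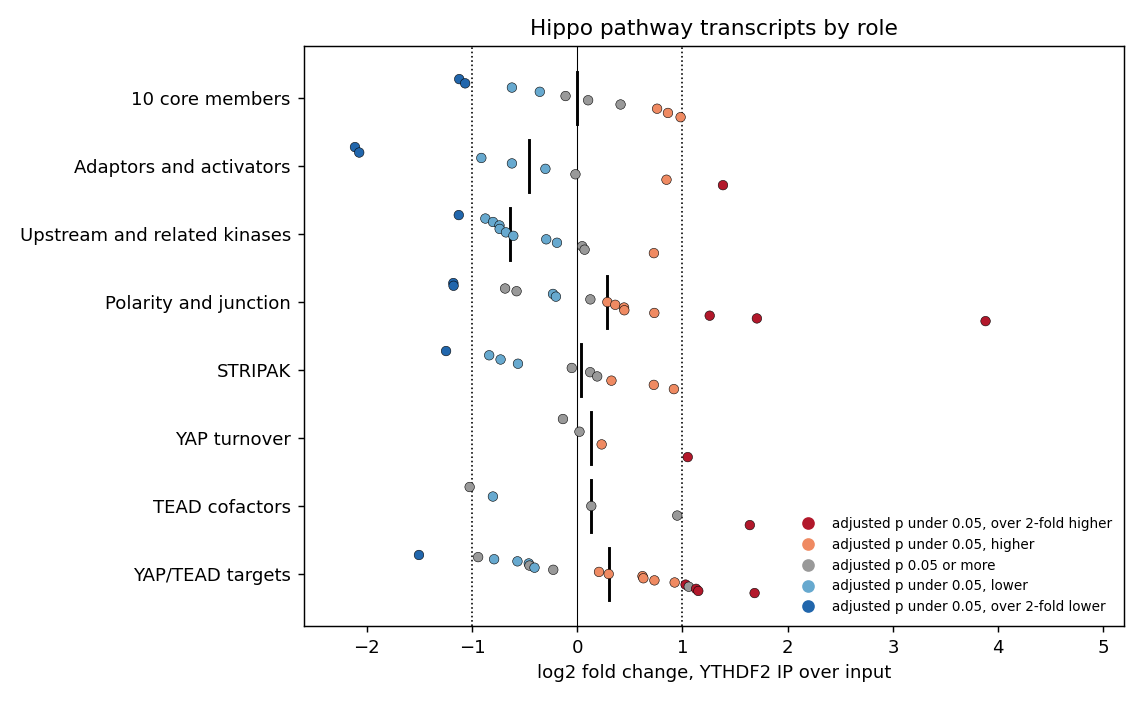
Log2 fold change of YTHDF2 IP over input for each tested gene of the pathway, by role, with a black bar at the median of each list and dotted lines at 2-fold. The 10 core genes stay between -1.12 and 0.98, while the adaptors reach from -2.11 to 1.39 and the upstream kinases have the lowest median, -0.64.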

How the data were processed

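RIP-seq libraries of E14 ESCs were used, 1 input and 2 YTHDF2 IP, grouped by title. The submitters' processing notes name fastp 0.19.4, HISAT2 2.2.1 and DESeq2 1.40.2, with mm10. The deposited values are raw counts that the authors made with featureCounts 2.0.3 over RefSeq exons, without strand and, per the file headers, counting each mate of a pair on its own, so counting noise exceeds what the totals imply. Methods describe IP from lysate and labels IP of extracted RNA. No control-antibody IP was among these libraries, so recovery through YTHDF2 and nonspecific recovery cannot be told apart in the ratios. 3 counts were 0.0811 CPM in the input and 0.0851 and 0.0836 CPM in the IP.

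Counts were fitted in edgeR 4.0.16 (R 4.3.3) after filterByExpr and TMM, with robust dispersions. The test was a quasi-likelihood F test with 1 residual degree of freedom and Benjamini-Hochberg adjustment over 19601 genes. The code was also run on simulated counts in which few genes differed and all libraries shared a dispersion. Such counts are unlike these data, so that run gives no error rate for them. The common dispersion was 0.00538. TPM used main-chromosome exons of GRCm38.p6, and ratios of single libraries a pseudocount of 0.5. SEs of gaps between genes treat the genes as independent. Trends with GC content, length and exons per kilobase were removed by loess. DESeq2 1.42.0 and other settings were alternatives. The members and lists were chosen with earlier results of these data known. The text names all members, Ythdf2, marker genes at or near 0, and genes of each list past 2-fold, at most the 4 highest and 4 lowest. The other list genes and markers it names were chosen after their values were seen.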

Additional observations from a re-analysis of the deposited data

How the results depend on the processing

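All 16 results (the counts of calls and the 10 log2 fold changes) kept their direction and side of the threshold with RLE size factors, DESeq2, halved counts, the length trend removed, and mitochondrial genes left out. With a fixed dispersion of 0.1, 1577 genes were enriched and 1531 depleted, against 2973 and 2743, and 0 members were depleted, 0 higher and 0 lower. The values were then Yap1 0.98 (adjusted p = 0.249), Wwtr1 -1.12 (0.142), Tead1 -0.36 (0.712), Tead2 0.76 (0.39), Tead4 -0.62 (0.474), Lats2 0.86 (0.323) and Stk3 -1.06 (0.172), all by edgeR. With the GC trend removed, which moved the median of all genes by -0.11, Tead2 was 0.038 (0.625), Tead3 reversed to -0.36 (0.197), Lats1 rose to 0.51 (7.37e-05), and 1 member was depleted, Tead4. Scaling by total count and the use of all genes with a count gave 1 enriched member each, Yap1, and the former 1 depleted member, Wwtr1.

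The next 2 settings were chosen after seeing the data. With the trend in exons per kilobase removed, Tead3 was 0.58 (0.0246), Lats1 reversed to -0.24 (0.0625), Stk4 was -0.42 (2.59e-05), and 1 member was depleted, Wwtr1. TPM scaling, which moved the median of all genes by 0.15, gave 2 enriched members (Yap1 and Lats2) and 0 depleted, Tead3 at 0.56 (0.0319) and Stk4 reversed to 0.038 (0.728). The cause of these changes was not tested. Leaving out either IP library kept all 10 directions, and its counts of calls have no test, since no residual degree of freedom is left. No paired analysis was possible because the labels give the input no replicate number. With 1 input, its own spread is unknown.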

Other observations

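Values of some other pathway genes, chosen after they were seen, are given here with no test of any difference between genes. Ppp2ca, the catalytic subunit of the STRIPAK phosphatase, stood at a log2 fold change of 0.73 ± 0.054, with 12685 input counts against 21853 and 21348 after IP. The NDR kinases, relatives of LATS, stood at 0.07 ± 0.0671 for Stk38, which did not pass the test, and at 0.73 ± 0.102 for Stk38l. Mob1b, the paralog of Mob1a, was lower at -0.91 ± 0.233 (300 input counts against 164 in each IP library). Of the WWC proteins, which activate LATS, Wwc1 was higher at 0.85 ± 0.0844, and Wwc2, at -0.02 ± 0.0709, did not pass the test.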
